A study of Mus musculus with 9 samples.

Results

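*Eif1b*, *Tspan13*, *Dok5* and *Cd24a* are 4 of the 17487 genes listed in the count matrices of single cells from the mouse neocortex. They were chosen because earlier results of these data showed them lower in neurons of *Tcf4* knockout (KO) than of wild-type (WT) embryos, so that difference is described here without a test. The data consist of 9 libraries, 1 per animal, from E18.5 neocortex prepared with the Chromium 3′ v2 kit, which tags every transcript it captures with its own identifier (UMI) so that copies made by PCR are counted once. The libraries were labelled WT1 to WT5 and KO1, KO2, KO4 and KO5, and the embryos of both groups were littermates from matings of mice carrying 1 disrupted allele (strain given as Tcf4ex4WT/lacZ). In KO animals both *Tcf4* alleles carried a *lacZ*/neomycin cassette before the fourth exon in every cell, an allele known to remove the long TCF4 isoform while a shorter one persists. Genotypes were compared between 3 WT libraries (WT2 to WT4) and 2 KO libraries (KO4 and KO5), and values of these are given below in the order of their numbers.

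The 4 genes belong to unrelated families. *Eif1b* encodes a close relative of the translation initiation factor EIF1, which helps the small ribosomal subunit to recognise the start codon. *Tspan13* encodes a tetraspanin, a protein that spans the membrane several times and organises other membrane proteins. *Dok5* encodes a docking adaptor that binds activated receptor tyrosine kinases such as RET and the TRK receptors. *Cd24a* encodes a small, heavily glycosylated surface protein held in the membrane by a lipid anchor, well known as a marker of young neurons in the forebrain. On GRCm38 (GENCODE vM21) *Eif1b* (ENSMUSG00000006941) lies on the plus strand of chromosome 9 from 120492232 to 120495330, where it overlaps the annotated gene D830035M03Rik. *Tspan13* (ENSMUSG00000020577) is on the minus strand of chromosome 12 from 36014557 to 36042500. *Dok5* (ENSMUSG00000027560) occupies 170731807 to 170879769 on the plus strand of chromosome 2, and *Cd24a* (ENSMUSG00000047139) 43578284 to 43584265 on the plus strand of chromosome 10. All 4 are protein-coding genes.

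The libraries held between 118 and 6173 cells after filtering, with medians of 2217 to 4359 UMIs per cell. *Tcf4* was checked first, and over all kept cells had 12.2, 12.6 and 12.2 UMIs per 10000 in the compared WT and 9.29 and 7.59 in the compared KO libraries. The libraries labelled WT5 (7.20), WT1 (4.65) and KO1 (16.7) go against their labels, and KO2 had 9.12. These 4 libraries are named here as labelled and were kept out of the main genotype comparison, and values with them added are given as alternatives. The choice follows the study, which left out samples with few cells and a WT animal with less *Tcf4* than the KO. WT1, KO1 and KO2 held 126, 331 and 118 kept cells and WT5 3630. Any pair of libraries shared at most 2.5% of the cell barcodes of the smaller one. Cells with over 1% haemoglobin UMIs were left out, and made up 13.9% of the cells of KO4 and 40.4% of those of KO5, against 0.421 to 4.34% elsewhere. Cells were assigned to classes by gates on marker genes, none of which is 1 of the 4 genes. In WT2 to WT4 all 6 upper layer, 8 deep layer, 10 interneuron, 8 cycling progenitor, 10 radial glia or astrocyte and 7 endothelial markers lay above the mean over all cells in their own class, as did 4 of 5 markers of intermediate progenitors. Glutamatergic cells in neither layer gate were taken as other glutamatergic cells, with no markers of their own. Genes outside the lists led as well, such as *Rprm* in deep layer cells, *Fabp7* in radial glia or astrocytes and *Sparc* in endothelial cells. Neurons comprised glutamatergic, interneuron, striatal and Cajal-Retzius cells, and progenitors, glia, vascular cells and microglia were taken as cells outside neurons.

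In neurons, all 4 genes were lower in both KO libraries than in each of the 3 WT libraries. Levels are given as UMIs per 10000, averaged over the cells of a library. *Eif1b* measured 8.34, 8.17 and 9.60 in neurons of the WT and 4.98 and 5.20 in those of the KO libraries. *Tspan13* measured 4.42, 5.17 and 3.52 against 2.53 and 2.11. The 2 groups were thus clearly separated for both genes, with means of 8.70 ± 0.78 (SD, n = 3) and 5.09 ± 0.16 (n = 2) for *Eif1b* and 4.37 ± 0.83 and 2.32 ± 0.30 for *Tspan13*. *Dok5* measured 2.55, 2.48 and 1.38 in the WT and 1.17 and 1.17 in the KO libraries. *Cd24a* measured 19.9, 23.0 and 20.7 against 14.9 and 13.2. For *Dok5* the WT4 library lay close to KO, while for *Cd24a* all 3 WT libraries stood well apart. Upper layer cells were 375 of 765, 942 of 1176 and 2287 of 4388 neurons in the WT libraries. They were 1470 of 3163 and 766 of 1747 in the KO libraries. WT4 also held 522 interneurons and 241 striatal cells, against 39 and 5 in KO4 and 27 and 0 in KO5. In upper layer cells alone *Dok5* was 2.01 in WT4 and 1.19 in both KO libraries. The part of class make-up in the levels was not tested. Expressed as log2(value + 1), KO minus WT was -0.67 (standard error 0.12) for *Eif1b*, -0.69 (0.14) for *Tspan13*, -0.51 (0.17) for *Dok5* and -0.56 (0.14) for *Cd24a*. Across all genes tested in neurons, both KO libraries were below each WT library in 38.9% of 8335 genes, and limma called 0.288% lower in KO at an adjusted p under 0.05. The members were selected on this contrast, so nothing can be read from their place in it. In these neurons the actin gene *Actb* measured 56.7, 67.5 and 41.9 in the WT and 174 and 171 in the KO libraries. The haemoglobin gene *Hbb-bs* measured 3.40, 4.04 and 2.77 against 16.7 and 34.7. Within the libraries compared this split cannot be told apart from genotype, and its part in the levels of the 4 genes was not tested.

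In the 4 libraries outside this comparison, *Eif1b* was higher in WT1 and WT5 than in KO1 and KO2, and the other 3 genes overlapped. The share of all genes with that order in these 4 libraries was not counted, so nothing is read from it. Over all 9 libraries each one labelled WT had more *Eif1b* in neurons (6.94 to 9.60) than each one labelled KO (1.71 to 5.20), an order seen for 0.967% of 8898 genes. The gene was chosen for lying lower in KO4 and KO5 than in WT2 to WT4, so part of this order was fixed in advance. That share therefore does not measure how rare the order is in the 4 libraries outside the comparison. WT5 held 2964 neurons, with a median of 2235 UMIs. In these neurons *Eif1b* was 7.16, *Tspan13* 2.31, *Dok5* 1.27 and *Cd24a* 13.5. All 4 values lay below those of WT2 to WT4, as did those of 50.7% of all genes, and the last 3 were close to those of KO4 and KO5. When WT5 was added as labelled, KO minus WT on the log2(value + 1) scale became -0.61 for *Eif1b*, -0.51 for *Tspan13*, -0.40 for *Dok5* and -0.41 for *Cd24a*, and limma called none of 8405 genes, with 299 at an unadjusted p under 0.05. With all 9 libraries as labelled the differences were -0.89, -0.44, -0.34 and -0.22 in the same order. WT1, with 54 neurons, had 6.94, 1.93, 0.231 and 8.40 for the genes in the same order. KO2, with 43 neurons, had 4.48, 2.70, 0.738 and 13.1. KO1, with 138 neurons, had 1.71 for *Eif1b* and 1.46 for *Tspan13*, the lowest of the 9 libraries, where KO1 was lowest for 26.4% of all genes. It had 0.624 for *Dok5* and 13.7 for *Cd24a*. *Eif1*, the closest relative of *Eif1b*, was also lowest in neurons of KO1 at 2.18, against 8.04 to 12.5 in the other libraries. *Malat1*, a nuclear RNA, was highest in KO1 at 496 over all kept cells, compared with 180 to 431 elsewhere. The part of RNA quality in the low *Eif1b* of KO1 was not tested.

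**Figure D1:**
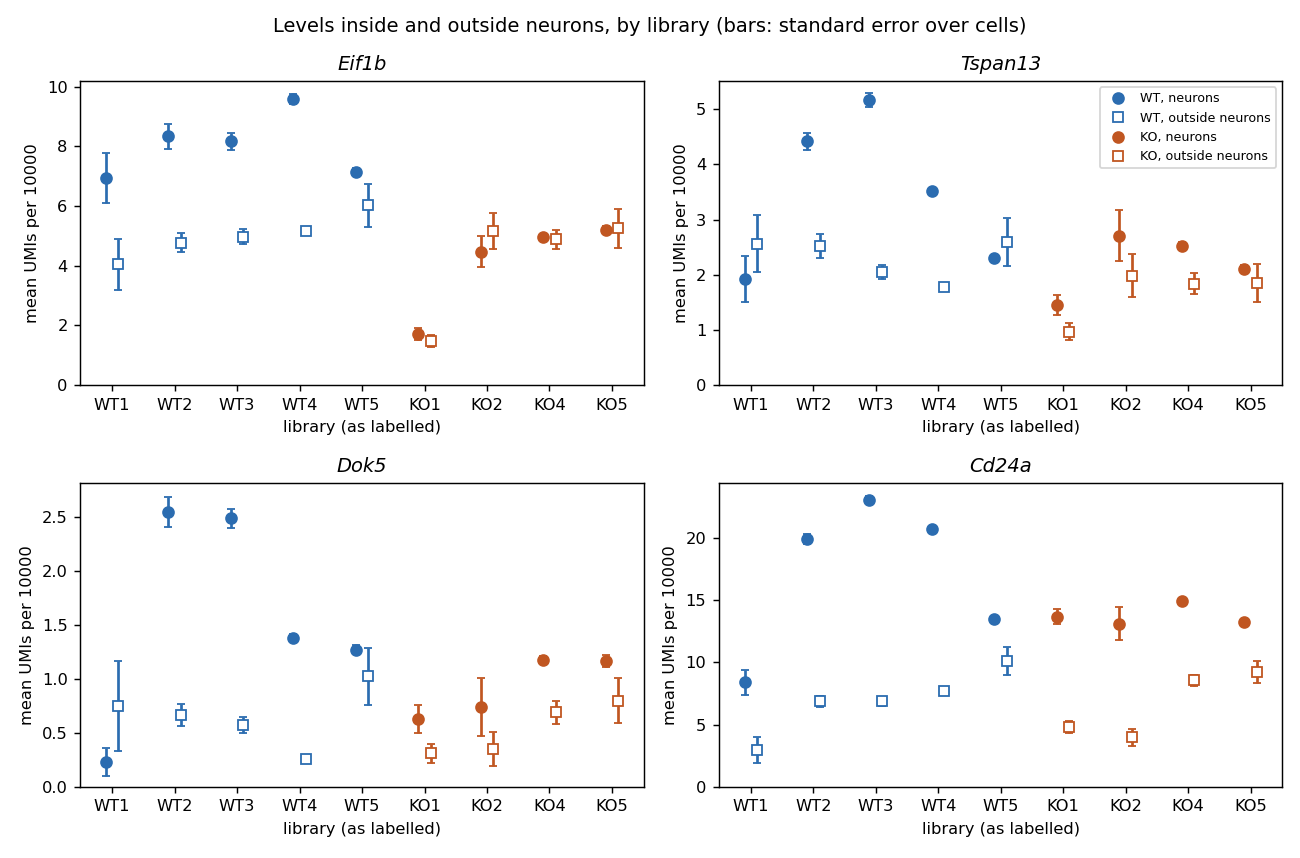
Mean UMIs per 10000 (vertical axes, from 0) of each gene in neurons (filled circles) and in cells outside neurons (open squares) of the 9 libraries, WT in blue and KO in orange as labelled. Bars are standard errors over cells, which are not replicates. In WT2 to WT4 the circles stand well above the squares for all 4 genes, while in WT5, KO4 and KO5 both lie closer together, with the circles of *Cd24a* still above its squares.

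Outside neurons, the genotypes were not separated in the same way. *Eif1b* was 4.78, 4.97 and 5.17 in the WT and 4.90 and 5.26 in the KO libraries. *Tspan13* was 2.52, 2.05 and 1.78 in the WT and 1.84 and 1.85 in the KO libraries. The groups overlapped for both genes. *Dok5* was 0.666, 0.572 and 0.256 in the WT and 0.689 and 0.798 in the KO libraries. *Cd24a* was 6.85, 6.86 and 7.71 in the WT and 8.54 and 9.24 in the KO libraries. Both genes were thus higher in each KO library than in each WT library, the opposite of their order in neurons, and this was the case for 13.0% of 9112 genes tested. On the log2(value + 1) scale KO minus WT was 0.02 (standard error 0.14) for *Eif1b*, -0.12 (0.14) for *Tspan13*, 0.23 (0.12) for *Dok5* and 0.28 (0.14) for *Cd24a*, with limma adjusted p of 0.935, 0.632, 0.268 and 0.254. None of the 4 was called, against 4.35% of all genes. With all 9 libraries as labelled the differences of *Dok5* and *Cd24a* turned to -0.10 and -0.041. The compared libraries are those in which the genes had been chosen, and adjusted p that miss the threshold do not show equal levels.

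These values rest on 270, 316 and 922 cells of the WT libraries and on 216 and 71 of the KO libraries. With progenitors left out, 59 and 12 such cells remained in KO4 and KO5, and *Cd24a* was 4.14 ± 0.70 (SD, n = 3) in WT and 7.50 ± 0.14 (n = 2) in KO. *Eif1b* in the same cells was 4.63, 5.11 and 5.04 in the WT and 3.35 and 4.12 in the KO libraries, lower in both KO libraries as it was in neurons and as were 23.6% of 9445 genes. *Tspan13* and *Dok5* overlapped between the genotypes there. In cycling progenitors alone, the largest class outside neurons, *Cd24a* was 7.91, 8.32 and 9.56 against 8.80 and 9.52, with overlapping groups. *Eif1b* in cycling progenitors was 4.49, 4.59 and 5.08 against 5.53 and 5.49, higher in both KO libraries. The share of all genes higher in both KO libraries was not counted in cycling progenitors or with progenitors left out.

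RNA of 6 genes typical of neurons, *Stmn2*, *Stmn3*, *Tubb3*, *Gap43*, *Dcx* and *Mapt*, was measured beside these values, since RNA released from broken cells enters all droplets. Their summed level outside neurons was 32.3, 26.9 and 38.8% of that in neurons in the compared WT libraries, but 52.9 and 67.5% in KO4 and KO5. It was 74.4% in WT5. For *Cd24a* the ratio of the level outside neurons to that in neurons was 0.344, 0.298 and 0.372 in the WT libraries. It was 0.574 and 0.699 in KO4 and KO5 and 0.750 in WT5. *Dok5* moved from 0.262, 0.230 and 0.186 to 0.587, 0.684 and 0.805 in the same libraries. *Eif1b* had 0.573, 0.609 and 0.538 in WT2 to WT4, 0.983 and 1.01 in KO4 and KO5 and 0.841 in WT5, and *Tspan13* 0.570, 0.397 and 0.504, then 0.728, 0.879 and 1.13. Of all genes with at least 1 UMI per 10000 on either side, 7.94 to 9.45% differed by over 1 on the log2(value + 1) scale between neurons and other cells in WT2 to WT4, compared with 2.57, 2.93 and 1.45% in WT5, KO4 and KO5. The summed level of 9 erythroid genes over all kept cells was 6.07 to 9.12 in WT2 to WT4 and 46.7, 32.5 and 72.6 in WT5, KO4 and KO5, and 0 to 2 of the 9 had no UMI in a library. The part of free RNA in the values in neurons and outside them was not tested. Within the libraries compared it cannot be told apart from genotype.

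**Figure D2:**
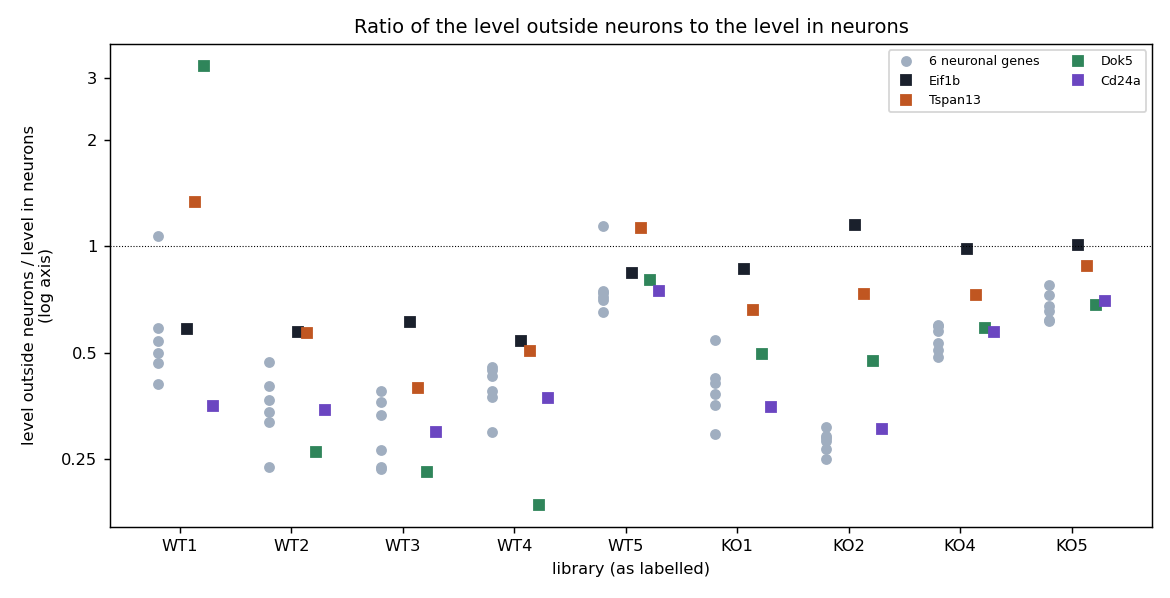
Level outside neurons divided by the level in neurons (log axis) for 6 neuronal genes (grey circles) and the 4 genes (coloured squares) in each library, with a dotted line at equal levels. In WT5, KO4 and KO5 the neuronal genes and the 4 genes lie nearer to the line than in WT2 to WT4.

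Whether the 4 genes were higher in neurons than in other cells was tested within libraries, with each of the 9 libraries giving both values. This contrast is not the genotype contrast, but 5 of its libraries are those used to choose the genes. Over all libraries all 4 genes were called higher in neurons, where 13.9% of 10613 genes were called in this direction. *Cd24a* was higher in neurons in 9 of 9 libraries, as were 8.38% of 8898 genes, with a log2 difference of 1.11 (standard error 0.12, limma adjusted p = 1.89e-05). *Dok5* was higher in 8 of 9 with a difference of 0.46 (0.14, adjusted p = 0.0209), and *Eif1b* and *Tspan13* each in 7 of 9 with 0.33 (0.096, adjusted p = 0.018) and 0.33 (0.11, adjusted p = 0.027). In WT2 to WT4 alone the differences were 0.70 for *Eif1b*, 0.78 for *Tspan13*, 1.05 for *Dok5* and 1.45 for *Cd24a*. In WT5, KO4 and KO5 alone they were 0.075, 0.11, 0.27 and 0.53 in the same order, and the limma adjusted p were 0.678, 0.579, 0.0599 and 1.50e-12. These p rest on only 3 libraries and on a variance that limma pooled over genes, so their size overstates the evidence. In the 4 libraries that had no part in the choice, WT1, WT5, KO1 and KO2, the differences were 0.21 (standard error 0.15), 0.06 (0.15), 0.08 (0.15) and 1.12 (0.15), with limma adjusted p of 0.444, 0.866, 0.792 and 1.96e-05. *Cd24a* was therefore called higher in neurons in each of these subsets, and the other 3 genes only in subsets that held WT2 to WT4. In the libraries without a part in the choice, *Dok5* differed by 0.17 in WT5, 0.31 in KO1 and 0.37 in KO2. It differed by -0.51 in WT1, which held only 3 *Dok5* UMIs in 54 neurons and 4 in 21 other cells. The calls of *Eif1b*, *Tspan13* and *Dok5* also fell away when no filter on low genes was used (adjusted p 0.088 to 0.114) or cells were thinned to 1800 UMIs (0.064 to 0.097). Without WT2 or without WT4, *Eif1b* had adjusted p of 0.054 and 0.053, and *Tspan13* was no longer called without any 1 of WT2, WT3, WT4, KO1 or KO2 (0.050 to 0.075).

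The 4 genes differed in the cell classes that held most of them. At least 10 cells in each of WT2 to WT4 were available for 10 classes, over which levels were ranked. *Cd24a* was highest in upper layer cells at 23.0 ± 1.28 (SD, n = 3 libraries), followed by other glutamatergic cells at 20.3 ± 0.19 and deep layer cells at 19.7 ± 0.90. It was 14.3 ± 3.21 in interneurons and 8.60 ± 0.86 in cycling progenitors. Cajal-Retzius cells, early-born neurons of the cortical surface, had only 4.39 ± 0.66, close to radial glia or astrocytes at 4.56 ± 1.01 and the oligodendrocyte lineage at 4.83 ± 0.27. The lowest level was in endothelial cells at 1.90 ± 0.17. *Dok5* was likewise highest in upper layer cells at 2.64 ± 0.59 and lowest in endothelial cells, where WT2 and WT3 had no UMI in 14 and 10 cells, which allows shares of cells with a UMI of up to 21.4 and 30% when 3 counts are taken as the limit, and of up to 23.2 and 30.8% by the exact binomial interval. In contrast to *Cd24a*, *Dok5* was low in deep layer cells at 0.955 ± 0.19 and in interneurons at 0.262 ± 0.087.

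*Eif1b* was highest in upper layer cells at 9.86 ± 1.65, with intermediate progenitors, precursors committed to glutamatergic neurons, next at 8.93 ± 0.78 and other glutamatergic cells at 8.82 ± 1.15. Cells that passed the gate of cycling progenitors were not counted as intermediate progenitors. The values of intermediate progenitors, 8.18, 8.85 and 9.74 from 18, 18 and 21 cells, overlapped those of both neuron classes. *Eif1b* was 4.31 ± 0.75 in interneurons, below cycling progenitors at 4.72 ± 0.31, and lowest in endothelial cells at 1.67 ± 0.82. *Tspan13* was the only 1 of the 4 genes with its highest mean outside neurons. It measured 7.23, 4.62 and 3.01 in endothelial cells of the WT libraries (14, 10 and 20 cells) and 2.90 in those of KO4 (16 cells). Its endothelial mean of 4.95 ± 2.13 was indistinguishable from 4.74 ± 0.66 in upper layer cells, given the spread over libraries. Cycling progenitors had 1.86 ± 0.19 and the oligodendrocyte lineage 1.78 ± 0.42, the lowest.

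**Figure D3:**
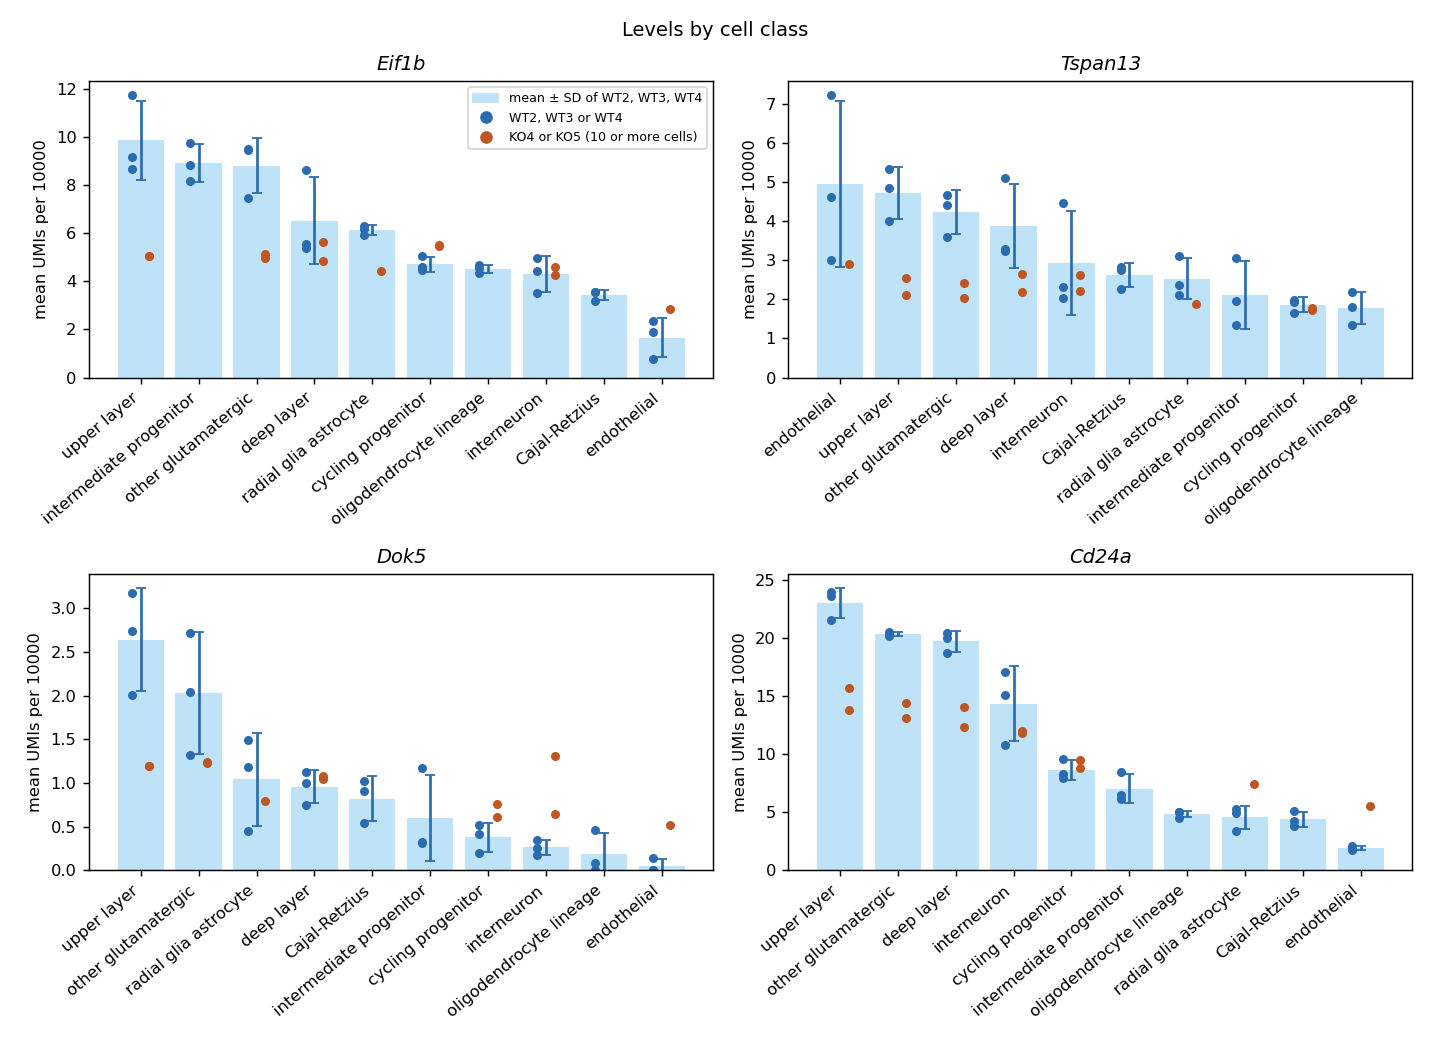
Mean UMIs per 10000 (vertical axes, from 0) of each gene in 10 marker-gated cell classes, ordered by the mean over WT2 to WT4 (bars, with SD). Points are single libraries, WT in blue and KO4 or KO5 in orange where the class held at least 10 cells. *Cd24a*, *Dok5* and *Eif1b* are highest in upper layer cells, and *Tspan13* is as high in endothelial cells.

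Neighbouring classes in these orders were compared over all libraries with at least 10 cells in both, with 2-sided exact sign-flip permutation tests and Benjamini-Hochberg adjustment over 36 pairs. None of the 36 passed, with adjusted p of 0.141 or more by this exact test, and 3 libraries cannot give an exact p below 0.25. The closest were *Tspan13* and *Cd24a*, each higher in upper layer than in other glutamatergic cells in 8 of 8 libraries (exact p = 0.00781, adjusted p = 0.141), by 0.14 and 0.22 on the log2 scale. Upper layer cells were also set against deep layer cells, cycling progenitors and interneurons, 12 comparisons that were chosen after the values had been seen. Upper layer cells had already been seen to rank high for all 4 genes. The libraries include WT2 to WT4, KO4 and KO5, in which the genes had been chosen. The p of these 12 therefore describe the values and do not test a claim made beforehand. *Cd24a* was higher in upper layer than in deep layer cells in 9 of 9 libraries, by 0.29 (exact permutation p = 0.00391, adjusted over the 12 comparisons p = 0.0312). *Dok5* was higher in 8 of 9 libraries, by 0.42 (exact p = 0.0195, adjusted p = 0.0335). For *Eif1b* the difference of 0.27, with 7 of 9 libraries higher, did not pass (exact p = 0.043, adjusted p = 0.0625), and nor did that of 0.15 for *Tspan13* (exact p = 0.211, adjusted p = 0.230). Against cycling progenitors, upper layer cells were higher by 1.11 for *Cd24a* and 0.78 for *Dok5* in 8 of 8 libraries and by 0.56 for *Tspan13* in 7 of 8 (exact permutation, adjusted p = 0.0312 for each). The difference of 0.32 for *Eif1b* was seen in 5 of 8 libraries (exact permutation, adjusted p = 0.197). Against interneurons, upper layer cells were higher in 7 of 7 libraries by 0.55 for *Eif1b* and 0.42 for *Cd24a* (exact permutation, adjusted p = 0.0312 for both). The differences of 0.74 for *Dok5*, in 6 of 7 libraries, and of 0.22 for *Tspan13*, in 4 of 7, did not pass (exact permutation, adjusted p = 0.0625 and 0.312).

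Within neurons, the differences between the compared WT and KO libraries were distributed unevenly over classes. In upper layer cells *Eif1b* was 9.18, 8.67 and 11.7 in WT and 5.05 and 5.07 in KO. *Tspan13* was 4.86, 5.33 and 4.02 against 2.55 and 2.12, and *Dok5* 3.17, 2.74 and 2.01 against 1.19 and 1.19. *Cd24a* was 21.6, 24 and 23.6 against 15.7 and 13.8. No gene overlapped between the genotypes there, as was the case for 35.1% of 8328 genes in the same direction, and the KO means were 0.51, 0.49, 0.45 and 0.64 times those of WT for *Eif1b*, *Tspan13*, *Dok5* and *Cd24a*. In deep layer cells *Dok5* was 0.997, 1.12 and 0.749 in WT and 1.08 and 1.05 in KO, with overlapping groups. *Eif1b* there was 5.55, 5.40 and 8.63 against 4.86 and 5.62, which also overlapped. *Tspan13* in deep layer cells, with 3.23, 5.11 and 3.28 against 2.65 and 2.19, and *Cd24a*, with 0.67 times the WT mean in KO, did not overlap. The share of all genes without overlap was not counted in deep layer cells, so nothing is read from this separation.

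In interneurons, which numbered 27, 20 and 522 in the WT and 39 and 27 in the KO libraries, the order was not that of upper layer cells. *Dok5* was 0.351, 0.178 and 0.256 in WT and 1.31 and 0.649 in KO, higher in both KO libraries. WT5 also had 1.06. How many of all genes were higher in both KO libraries was not counted in interneurons. *Eif1b* measured 3.51, 4.44 and 4.99 against 4.59 and 4.29, and the other 2 genes overlapped between the groups too. On the log2(value + 1) scale, KO minus WT in interneurons was 0.04 (standard error 0.23) for *Eif1b*, -0.15 (0.24) for *Tspan13*, 0.63 (0.23) for *Dok5* and -0.23 (0.21) for *Cd24a*. In upper layer cells the values were -0.83 (0.14), -0.78 (0.13), -0.72 (0.13) and -0.61 (0.14), and in deep layer cells -0.25 (0.18), -0.49 (0.17), 0.08 (0.12) and -0.55 (0.15). The differences between classes in these values were not tested. Over these 3 classes, the KO levels ranged from 0.649 to 1.31 for *Dok5* and from 4.29 to 5.62 for *Eif1b*, while the WT levels ranged from 0.178 to 3.17 and from 3.51 to 11.7.

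**Figure D4:**
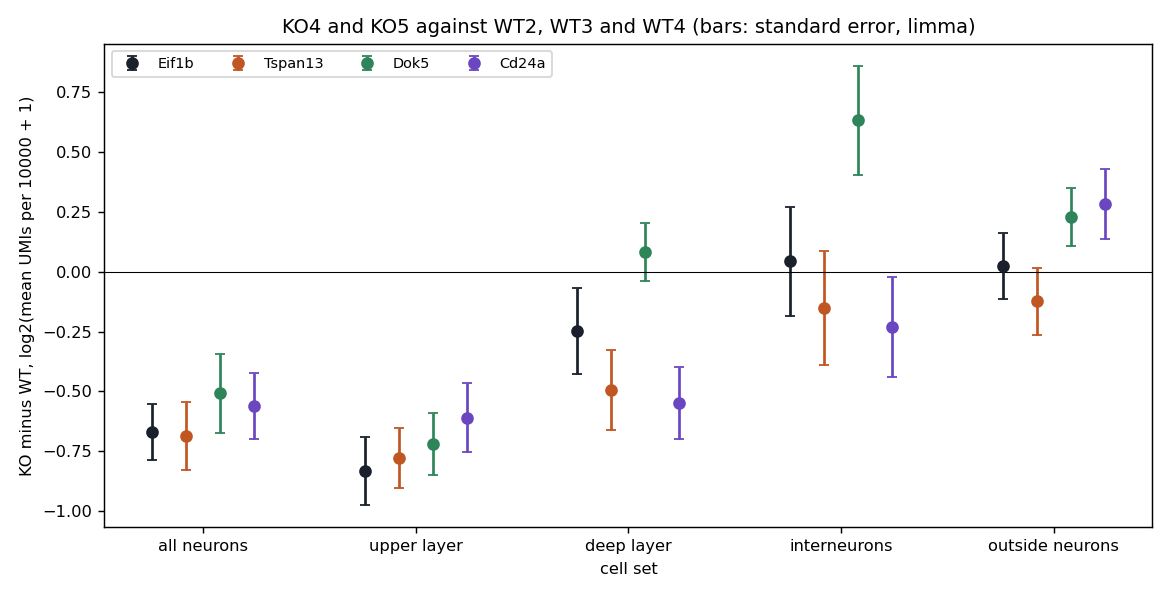
Difference of KO4 and KO5 from WT2 to WT4 in log2(mean UMIs per 10000 + 1) for the 4 genes in all neurons, 3 classes of neurons and cells outside neurons, with standard errors from limma. All 4 genes lie below 0 in upper layer cells, while *Dok5* is above 0 in deep layer cells, interneurons and cells outside neurons.

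The share of neurons with at least 1 UMI gave a similar order for *Eif1b*, *Tspan13* and *Dok5*, but depended on depth. *Tspan13* was detected in 67.2, 81.1 and 74.0% of neurons in the WT and in 46.7 and 39.7% in the KO libraries. The exact (Clopper-Pearson) 95% interval was 63.7 to 70.5% in WT2 and 44.9 to 48.5% in KO4, which covers counting error only. After thinning of each cell to 1800 UMIs the shares were 54.5, 57.8 and 45.9% against 36.4 and 31.5%, still without overlap. How many of all genes lacked overlap by this measure was not counted. *Dok5* was detected in 43.0, 53.6 and 38.8% against 26.4 and 23.1%, and after thinning in 32.5, 32.0 and 20.5% against 19.2 and 17.8%, where WT4 lay next to KO4. *Eif1b* was detected in 73.2, 84.8 and 89.1% against 69.2 and 70.2%, and after thinning in 61.4, 64.6 and 67.2% against 58.0 and 60.1%. *Cd24a* was found in 95.9, 99.1 and 99.4% of WT and 96.5 and 95.1% of KO neurons, so nearly all neurons held it and its share hardly carried the difference in level. The groups overlapped for this share. After thinning it was 93.9 to 97.0% in the WT and 90.2 to 93.2% in the KO libraries. Neurons had medians of 2479, 3550 and 4395.5 UMIs in the WT and 2291 and 2232 in the KO libraries.

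Endothelial cells served as a class with little *Cd24a*, *Dok5* and *Eif1b*. After thinning, *Cd24a* was detected in 31.2 ± 3.4% (SD, n = 3) of endothelial cells in WT2 to WT4, against 95.5 ± 1.6% of neurons, and in KO4 in 56.2%. *Dok5* was not detected in thinned endothelial cells of the 3 WT libraries and in 12.5% of the 16 in KO4. Microglia reached 10 cells in WT4 (48 cells) and KO4 (13 cells), where *Cd24a* measured 5.09 and 9.25 and *Dok5* 0.450 and 1.77. For *Cd24a* and *Dok5* the values of KO4 in both classes were above those of WT. *Eif1b* was higher in KO4 in endothelial cells (2.86 against a WT mean of 1.67) but lower in microglia (2.29 against 3.62). *Tspan13* was lower in KO4 in endothelial cells (2.90 against 4.95) and higher in microglia (1.98 against 1.38). The share of neuronal RNA outside neurons was also higher in KO4, and a link with these values was not tested.

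Relatives of each gene were examined in the contrast of neurons with other cells. Of 32 translation initiation genes tested, 3 were called higher and 1 lower in neurons, with a median log2 difference of 0.00, as over all 10613 genes, of which 13.9% were called higher and 16.5% lower. The counts of the families below are to be read against the same shares. *Eif4a2*, an RNA helicase of the cap-binding complex, was higher in neurons in 9 of 9 libraries by 0.63 (standard error 0.094, limma adjusted p = 0.000133), and its relative *Eif4a1* in 8 of 9 by 0.14 (0.05, adjusted p = 0.0468). *Eif1* was called lower in neurons, with a mean over the 9 libraries of 10.3 against 12.2 outside and a difference of -0.20 (0.058, adjusted p = 0.0174). *Eif1* and *Eif1b* thus went in opposite directions, and since their transcripts resemble each other, reads shared between the 2 genes are uncertain. In the genotype comparison *Eif1* showed a log2 difference of -0.045 (standard error 0.12) in neurons, beside -0.67 for *Eif1b*.

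Of 19 tetraspanins tested, 2 were called higher and 10 lower in neurons, with a median of -0.12. Apart from *Tspan13*, *Tspan5* was called higher, by 0.26 (standard error 0.068, limma adjusted p = 0.009). *Cd9*, *Cd63* and *Cd81*, which are abundant in glia and vessels, were lower in neurons in 9 of 9 libraries, by -0.92, -0.87 and -0.79 on the log2 scale (limma adjusted p = 1.89e-05, 3.53e-06 and 2.6e-06). Of 14 adaptors and receptors around *Dok5*, 3 were called higher and 1 lower. The neurotrophin receptor gene *Ntrk3* was higher in neurons by 0.53 (0.077, adjusted p = 0.000101 by limma) and the adaptor gene *Grb2* by 0.30 (0.056, adjusted p = 0.000902), each in 9 of 9 libraries, while *Ntrk2* was lower by -0.40 (0.073, adjusted p = 0.000624). Of 19 genes for lipid-anchored and L1-type surface proteins, 10 were called higher and 1 lower, with a median of 0.12. After *Cd24a*, *Ly6h* had the largest rise at 0.94 (0.12, adjusted p = 2.71e-05 by limma), followed by the axonal adhesion gene *Cntn2* at 0.82 (0.13, adjusted p = 0.000207). *Ly6e* was lower by -0.23 (0.058, adjusted p = 0.00656 by limma).

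In the genotype comparison in neurons, where 0.288% of all genes were called lower, the same families held few calls. No translation initiation gene was called higher in KO and 1 of 32 lower. One of 15 tetraspanins and 1 of 18 lipid-anchored and L1-type genes were called lower, and none of 11 adaptors and receptors in either direction. The medians were -0.18, -0.12, -0.09 and -0.01 for translation initiation, tetraspanins, surface proteins and adaptors, beside -0.04 over all 8335 genes. The calls in translation initiation and among the tetraspanins are *Eif1b* and *Tspan13*, which were chosen on this contrast, and the surface gene is *Cntn2*. Outside neurons, where 2.56% of all genes were called lower and 1.79% higher, 1 of 32 translation initiation genes (*Eif5*) and 3 of 17 tetraspanins (*Cd9*, *Cd63* and *Tspan31*) were called lower, and 1 of 18 surface genes (*Ly6h*) higher. None of 10 adaptors and receptors was called there. Genes named in this paragraph were picked out after their values had been seen.

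The genes whose means over the 10 classes in WT2 to WT4 followed each of the 4 most closely were named from 3169 genes, as a description over points that share libraries and depth. For *Cd24a* they were *Uba1*, *Matr3*, *Zfp57*, *Apc2* and *Mir124-2hg*, with Pearson's r of 0.979 to 0.967. For *Dok5* they were *Nuak1* (0.932), *Ttc28*, *Jakmip1* and *Igsf3* (0.885). For *Eif1b* they were *Cct7* (0.921), *Unc5d*, *Rae1*, *Clip3* and *Kif21a* (0.902). For *Tspan13* they were *Tsc22d1* (0.941), *Nrp1*, *Myl12b*, *Mff* and *Ntan1* (0.898), and *Tsc22d1* was also higher in endothelial cells (32.7) than in upper layer cells (16). Among the 4 genes themselves, *Eif1b* and *Dok5* had an r of 0.768 over classes, *Eif1b* and *Cd24a* 0.741 and *Dok5* and *Cd24a* 0.676. *Tspan13* followed the others less, with -0.002 to 0.441.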

How the data were processed

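The authors aligned reads of Chromium 3′ v2 libraries to GRCm38 with Cell Ranger and filtered cells with Seurat 2.3.4, per the labels and methods. For WT4, WT5, KO4 and KO5 they deposited UMI counts. The other 5 libraries were deposited as natural log values, ln(1 + UMIs per 10000), from which whole UMIs were recovered (100% of values whole within 1e-06). Each library held 348105 to 29767293 UMIs. Cells had 1000 to 5000 genes, 1800 to 10000 UMIs, under 6% mitochondrial and at most 1% haemoglobin UMIs. No doublet caller was run here. A class needed 3 UMIs on 2 or more of its markers, and a cell in several gates took the class with at least 2 times the marker UMIs of the next, or was set aside as mixed (6.6 to 29.4% of kept cells). That last rule was chosen after values had been seen. Between 36.4 and 81.7% of kept cells were neurons.

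Means of UMIs per 10000 per library and class (10 or more cells), as log2(value + 1), were fitted with limma-trend 3.58.1 (R 4.3.3, robust variances), for genes of at least 0.1 in 2 libraries. Neurons and other cells were compared with the library as a block, and genotypes over WT2, WT3, WT4, KO4 and KO5. Adjusted p are Benjamini-Hochberg values over all genes, and those under 0.05 are referred to as called. EdgeR 4.0.16 and DESeq2 1.42.0 on summed UMIs were alternatives. The fits were tested on simulated data. The 4 genes, the marker and family lists and the tests were chosen with earlier results of these data known. Named genes are the 4, up to 3 called genes each way per family with the largest change between neurons and other cells, and the 5 nearest to each gene over classes. One of the latter and 1 planned subset of neurons are not reported here. Genes were matched to GENCODE vM21 by symbol (16884 of 17487).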

Additional observations from a re-analysis of the deposited data

Results flagged for a closer look

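Among libraries labelled KO, KO1 stood far below the others outside neurons for *Eif1b*, with 1.48 UMIs per 10000, and for *Tspan13*, with 0.964. These were 2 of 16 groups of 4 or 5 libraries examined for a single distant library, and chance gives about 1 in 20. *Tcf4* in KO1 also goes against its label, and *Eif1* was 1.88 outside neurons, against 11.8 to 15.7 in the other libraries.

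For *Dok5* and *Cd24a* both KO libraries lay below each WT library in neurons and above each WT library outside neurons, where the log2 difference was 0.23 and 0.28, in the same order. The difference between the cell sets was not tested, and the members were chosen on the first of them.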

How the results depend on the processing

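The log2 difference of *Cd24a* between neurons and other cells was called under all 24 alternatives tried (0.53 to 1.55), and those of *Eif1b*, *Tspan13* and *Dok5* kept their sign under all 24. Besides the settings named above, *Tspan13* and *Dok5* lost their call without progenitors and *Eif1b* when cells in more than 1 gate were left out. The number of genes called in this contrast, 3233, became 1805 with such cells left out, 2110 without progenitors, 5306 and 5305 with edgeR (TMM and RLE), 4877 with DESeq2, 934 in WT5, KO4 and KO5 and 635 in WT1, WT5, KO1 and KO2, and stayed between 2492 and 3517 without 1 library.

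Outside neurons, limma called 396 genes between genotypes, 135 and 142 with edgeR (TMM and RLE), 152 with DESeq2 and 0 without a filter (2382 at unadjusted p under 0.05), with all libraries as labelled (355) or with WT5 added (669). Without 1 library the number ran from 105 to 1058 (224 without WT2, 120 without WT3, 679 without WT4, 1058 without KO4, 105 without KO5). *Eif1b*, at 0.02, was -0.018 to 0.067 without 1 library, -0.29 with all libraries and -0.034 with WT5 added. *Tspan13* became 0.018 with cells in more than 1 gate left out, and with all libraries *Dok5* became -0.10 and *Cd24a* -0.041. None of the 4 was called under any alternative.

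In neurons, limma called 209 genes, 81 without a filter, 412 with DESeq2, and 0 with all libraries as labelled (333 at unadjusted p under 0.05) or with WT5 added (299). It called 390 in upper layer cells, 83 in deep layer cells and 93 in interneurons, and between 35 and 894 without 1 library (35 without WT2, 894 without WT4, 72 without KO4, 50 without KO5). The sign turned for *Eif1b* in interneurons (0.043) and for *Dok5* in deep layer cells (0.082) and interneurons (0.63). The causes of these changes were not tested.

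With the replicate number as a block over WT2, WT4, WT5 and their KO counterparts (replicate block), 0 genes were called in neurons (586 at unadjusted p under 0.05) and 14 outside neurons, where *Eif1b*, *Dok5* and *Cd24a* became -0.046, -0.015 and -0.21. In neurons the block gave -0.66, -0.33, -0.41 and -0.35 for *Eif1b*, *Tspan13*, *Dok5* and *Cd24a*. Deviations of same-numbered libraries correlated at -0.083, 0.26, 0.22 and 0.53 in neurons for numbers 1, 2, 4 and 5, and WT5 correlated at 0.52 with KO4 (outside neurons -0.055, 0.24, 0.22 and 0.50). Of the 4 WT libraries with a KO partner, 3 correlated best with their own number in neurons and 2 outside. Since 1 of 4 pairs did not correlate and the labels name no shared litter, the numbers were not taken to pair the libraries. Depth limits *Dok5* in endothelial cells, with 0 to 2 UMIs in each WT library compared.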

Other observations

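Cells left out for haemoglobin could be compared with kept cells of the same library in KO4 and KO5, where they were many. In the 1561 such cells of KO5 *Eif1b* was 4.79, against 5.20 in kept cells, and *Cd24a* 12.7 against 12.9. In the 677 of KO4 *Eif1b* was 4.66 against 4.93 and *Cd24a* 12.8 against 14.1. *Tspan13* was 2.24 against 2.11 in KO5 and 2.21 against 2.42 in KO4. In WT4, with 35 such cells, *Eif1b* was 4.69 against 8.38 and *Cd24a* 11.7 against 17.7. In WT5, with 140 such cells, *Eif1b* was 7.40 against 7.06 and *Cd24a* 12.4 against 13.3. The cell classes of these cells were not compared.

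*Actb*, the cytoplasmic actin gene, separated the libraries in neurons in the same way as haemoglobin did. It was 197, 174 and 171 in WT5, KO4 and KO5, compared with 56.7, 67.5 and 41.9 in WT2 to WT4.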
